A study of Mus musculus with 18 samples.

Results

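The genes described here form the VEGF and angiopoietin system, the secreted factors and cell-surface receptors through which a tissue builds and maintains its blood and lymph vessels. The 10 members were chosen by gene symbol and not by their values: 6 ligands (Vegfa, Vegfb, Vegfc, Figf, Angpt1 and Angpt2) and 4 receptors (Flt1, Kdr, Flt4 and Tek). They are 10 of the 45151 symbols listed in all 18 samples. The samples were RNA-seq libraries from 3 fat depots of wild-type male C57BL/6J mice that were 16 weeks old and ate regular chow, with 6 libraries per depot. Mature adipocytes that floated free after collagenase digestion were used for inguinal white fat (iWAT) and for epididymal white fat (eWAT), whereas brown fat (BAT) was frozen as whole tissue. Depot and preparation therefore cannot be told apart in any comparison with BAT. The labels give each library a number but do not state that libraries came from separate animals, and p-values then measure the spread between these libraries.

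VEGF ligands bind receptor tyrosine kinases on endothelial cells. Vegfa acts through Kdr, the main signalling receptor of blood endothelium, and is also bound by Flt1, which takes up Vegfa and Vegfb and exists in a soluble form. Vegfc and Figf, the gene for VEGF-D, act through Flt4, the receptor best known from lymphatic endothelium. The angiopoietins share the receptor Tek, for which Angpt1 is the stable agonist and Angpt2 a context-dependent antagonist released by activated endothelium. In fat, adipocytes are known to secrete Vegfa and Vegfb, whereas the receptors are known from the vessels that run between them.

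Vegfa, Vegfb and Flt1 make mRNAs that differ in a short segment, and the segments are shown here because the eWAT files, which count each transcript on its own, gave a read count for each. All lie on the minus strand of the mm9 genome and read 5′ to 3′. Exon 6 of Vegfa (chr17:46159226-46159297, 72 bases) encodes a basic stretch that binds the matrix, and exon 7 (chr17:46157940-46158071, 132 bases) encodes part of the heparin-binding domain of the common form. The Vegfb segment (chr19:7059986-7060086, 101 bases) begins an exon at the earlier of its annotated splice acceptors. The Flt1 stretch (chr5:148450756-148450845) spans the end of exon 13, from which an annotated short transcript runs on into the intron and so lacks the exons for the membrane anchor and the kinase. Capitals mark the exon or the segment, and lower case marks the neighbouring bases.
Vegfa exon 6: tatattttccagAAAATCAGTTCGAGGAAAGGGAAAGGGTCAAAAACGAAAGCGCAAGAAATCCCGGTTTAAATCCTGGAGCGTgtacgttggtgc
Vegfa exon 7: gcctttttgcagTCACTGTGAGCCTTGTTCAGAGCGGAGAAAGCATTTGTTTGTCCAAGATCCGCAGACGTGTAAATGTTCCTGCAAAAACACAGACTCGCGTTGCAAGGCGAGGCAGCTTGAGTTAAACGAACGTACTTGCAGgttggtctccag
Vegfb segment: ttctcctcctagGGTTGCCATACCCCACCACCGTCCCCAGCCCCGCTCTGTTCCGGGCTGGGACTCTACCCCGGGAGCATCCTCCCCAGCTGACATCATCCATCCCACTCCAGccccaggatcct
Flt1 exon 13 and intron: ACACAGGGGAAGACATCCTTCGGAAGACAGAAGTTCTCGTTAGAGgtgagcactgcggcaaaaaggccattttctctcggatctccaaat

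Levels are given as RPKM, reads scaled to row length and to the read total of the library, and so can be set side by side between genes. In every depot Vegfa and Vegfb stood at the top by mean RPKM, and Kdr came next. Vegfa made up 57.1% ± 8.66 of the summed RPKM of the 4 VEGF ligands in iWAT (SD, n = 6), 53.2% ± 7.86 in eWAT and 55.1% ± 3.27 in brown fat. Vegfb made up most of the rest, at 36.5% ± 7.46, 38.7% ± 7.31 and 43.3% ± 3.34. The ranges of Vegfa and Vegfb overlapped in iWAT, in eWAT and in BAT. Among the 3 VEGF receptors, Kdr held 63.3% ± 4.23 of the RPKM in iWAT, 59.8% ± 3.09 in eWAT and 66.3% ± 4.403 in brown fat, and Flt4 held only 4.36% ± 0.643, 4.61% ± 0.334 and 3.58% ± 0.596. Angpt2, Flt4 and Vegfc were the 3 lowest members in every depot, and neighbours among them overlapped. Neighbours in the order whose ranges did not meet were Vegfb and Kdr in iWAT, and Vegfb and Kdr, Kdr and Flt1, and Angpt1 and Figf in BAT. In eWAT all neighbours overlapped.

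**Figure D1:**
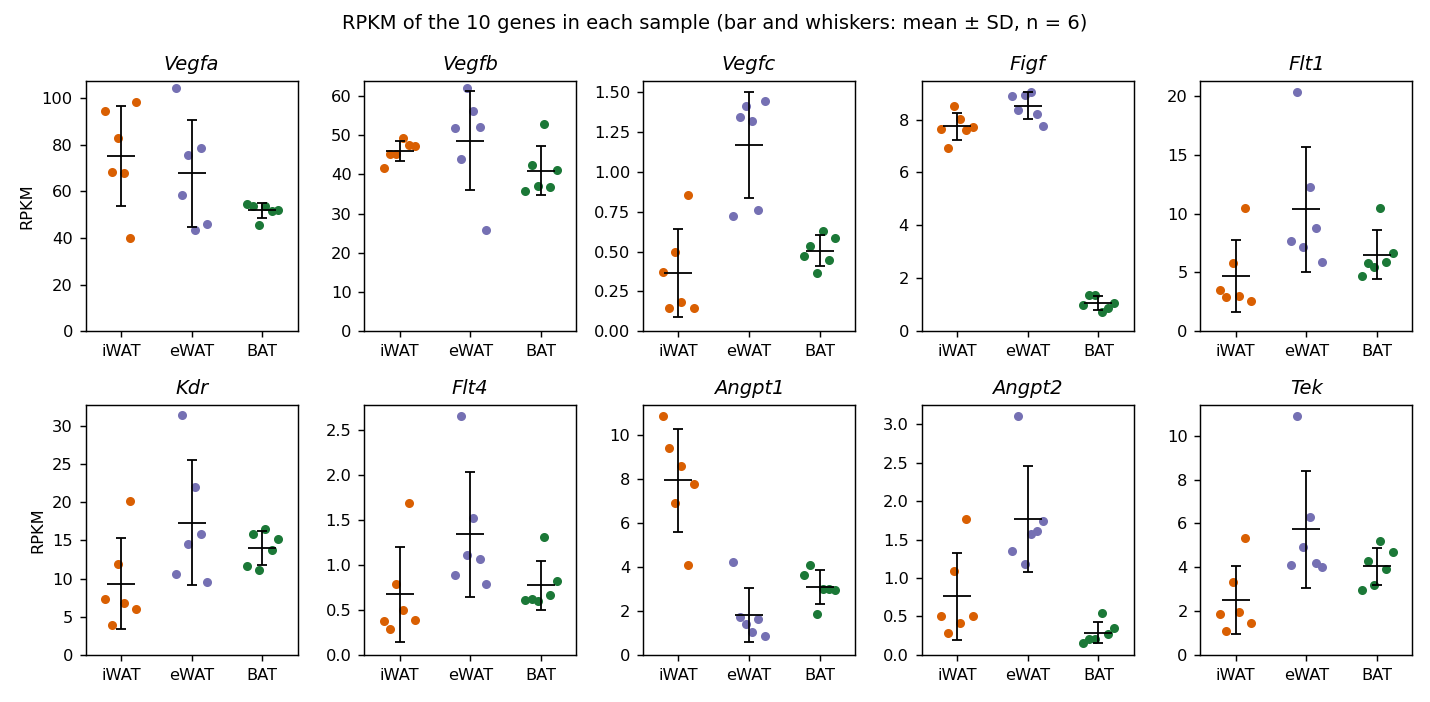
RPKM (vertical axis, from 0) of each of the 10 genes in each of 6 libraries per depot, with points for libraries and a bar with whiskers for the mean ± SD. Figf is near 8 RPKM in both white depots and near 1 in BAT, Angpt1 is highest in iWAT, and 1 iWAT point and 1 eWAT point stand above the others for the 4 receptors.

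The library totals behind the RPKM values ran from 22929576 to 34512470 reads. Brown adipocyte markers summed to between 2430 and 2959 RPKM in BAT, against 52.4 to 139 in iWAT and 15.2 to 30.2 in eWAT. Markers of other cell types varied within depots. The 15 blood endothelial markers summed to between 74.6 and 418 RPKM in iWAT, 201 to 490 in eWAT and 86.6 to 202 in brown fat. Library 14 of iWAT was highest for 15 of 15 of them, library 8 of eWAT for 13 and library 11 of BAT for 13. The 8 macrophage markers reached 2229 RPKM in library 15 of eWAT against a median of 266 in that depot, and the 5 epididymis markers reached 90.4 in library 14 of eWAT against 0 in iWAT. The 5 skeletal muscle markers reached 1340 in library 12 of BAT. Results that rest on these libraries are given with and without them. Where the library left out was the extreme of its depot for the same gene, the direction of the change was fixed beforehand. The p-value without it is then a description and no further support.

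The comparison of iWAT with BAT asked which ligands and receptors differ between a white and the brown depot. Figf, Angpt1 and Angpt2 were higher in iWAT, by 6.06-fold, 2.15-fold and 2.23-fold, and the receptors Tek and Kdr were lower, by 1.92-fold and 1.80-fold. Thus 5 of 10 members passed an adjusted p of 0.05, in a comparison where 67.6% of all rows tested did so. The 3 that were higher compare with 34.0% of all rows called higher in iWAT, and the 2 that were lower with 33.6% called lower. All 10 members passed the filter on low counts. Their median log2 fold change was -0.27, against 0.01 over all rows. The 6 ligands had a median of 0.69 and the 4 receptors a median of -0.78. Fold changes are relative to all genes, because TMM scaling was used: without it the median gene was 0.27 higher in iWAT than BAT on the log2 scale, 0.81 higher in eWAT than BAT and 0.39 lower in iWAT than eWAT.

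In the comparison of eWAT with BAT, 4 of 10 members passed, where 73.9% of all genes tested did. Figf and Angpt2 were higher in eWAT, by 4.85-fold and 3.72-fold (39.9% of all genes were higher). Angpt1 and Vegfb were lower, by 2.77-fold and 1.39-fold (34.1% of all genes were lower). None of the 4 receptors passed. Between the 2 white depots, 3 of 10 members passed, where 52.4% of all genes did. Angpt1 was 5.84-fold and Vegfa 1.49-fold higher in iWAT (24.2% of all genes were higher), and Vegfc was 2.32-fold higher in eWAT (28.3% were lower in iWAT). The comparisons share libraries and are not independent of each other. In each of them the share of members called was below that of all genes.

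**Figure D2:**
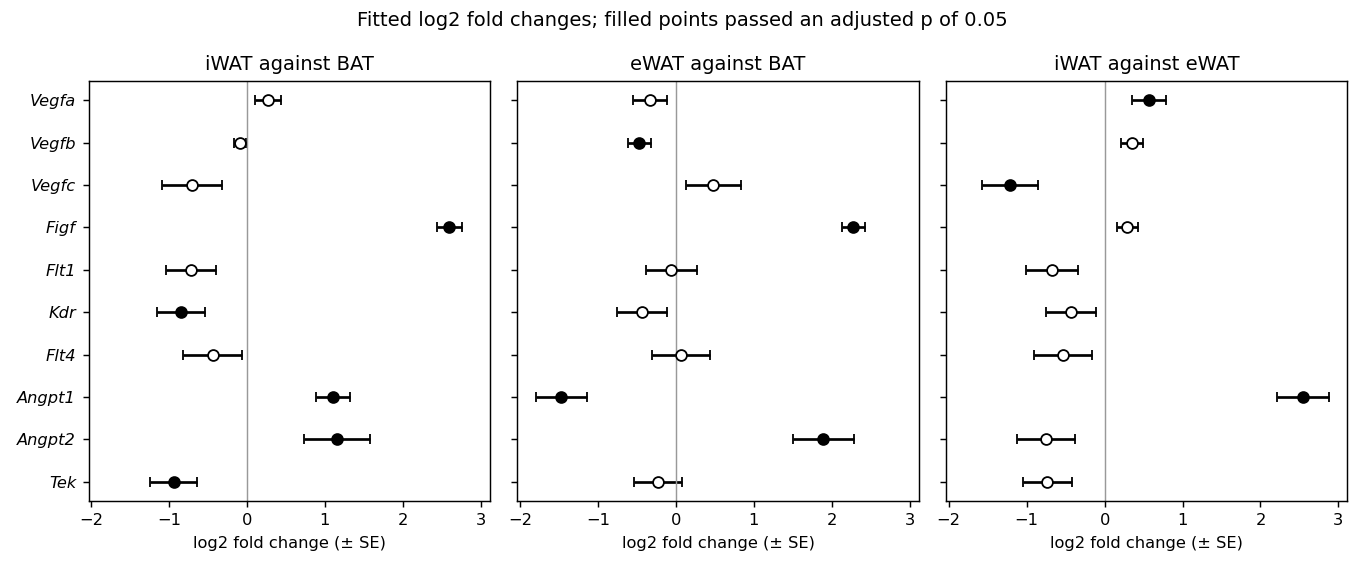
Log2 fold change with its standard error (horizontal axis) for the 10 genes in the 3 comparisons, from fits over all genes, with filled points for an adjusted p under 0.05. Figf is to the right in both comparisons with BAT, and Angpt1 is to the right in both comparisons that start from iWAT and to the left in eWAT against BAT.

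Values that involve eWAT carry a limit that is stated here once. The eWAT files list transcripts, whereas those of iWAT and BAT list merged genes, whose rows were 1.04 to 1.959 times as long for the 10 members. In 10 of 10 members the transcript used for eWAT lay within the merged row. The row length was therefore an offset in the fit. If the extra bases of the merged rows hold few reads, the offset overstates eWAT, and leaving it out understates eWAT. The value without the offset is given where it changed a call.

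Vegfa, which hypoxia induces in many tissues, was the most abundant member. It had a lowest, median and highest RPKM of 40.1, 75.6 and 98.4 in iWAT and 43.5, 67.0 and 104 in eWAT, beside 45.5, 52.9 and 54.4 in BAT. The 6 BAT libraries lay close together and the white libraries did not, and the depots overlapped. The log2 fold change was 0.27 ± 0.17 (SE) in iWAT against BAT (adjusted p = 0.168), -0.33 ± 0.22 in eWAT against BAT (adjusted p = 0.174) and 0.57 ± 0.22 in iWAT against eWAT (adjusted p = 0.0326), all by edgeR's quasi-likelihood test with Benjamini-Hochberg adjustment. Library 14 of iWAT had the lowest Vegfa of its depot, and without it the iWAT against BAT value was 0.41 (edgeR, adjusted p = 0.00454). Library 7 of eWAT had the highest Vegfa of its depot, and without it eWAT was called lower than BAT (-0.51, edgeR, adjusted p = 0.0296), whereas the fit without TMM turned the value to 0.39 (adjusted p = 0.0983). The difference between the white depots was lost without the length offset (0.53, adjusted p = 0.0754) and without any of 5 single libraries, iWAT 7 or 15 and eWAT 8, 13 or 15, with adjusted p up to 0.0795. It shrank to 0.15 without TMM (edgeR, adjusted p = 0.575), to 0.16 in both limma fits on RPKM and to 0.41 with the transcript nearest in length (edgeR, adjusted p = 0.12).

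One row that covers part of Vegfa was the same in all 18 files. It is annotated on the plus strand at chr17:46167879-46169132, and 893 of its 1254 bases lie in the first Vegfa exon on the other strand. The library kit did not mark strand, so its reads cannot be divided between the 2 strands. It had a lowest, median and highest RPKM of 35.7, 68.1 and 97.9 in iWAT and 31.5, 45.3 and 69.1 in eWAT, beside 28.6, 29.9 and 35.0 in BAT, and all 6 iWAT libraries were above all 6 BAT libraries. The log2 fold change was 0.88 ± 0.19 in iWAT against BAT (edgeR, adjusted p = 8.2e-04), from the main fit. The comparisons with eWAT came from a separate edgeR fit on 5637 rows shared by both kinds of file. That fit had its own TMM scaling and adjustment and no length offset. It gave 0.36 ± 0.21 in eWAT against BAT (adjusted p = 0.136) and 0.62 ± 0.21 in iWAT against eWAT (adjusted p = 0.0589). In the same files of merged genes, the level of this row was 82.7 to 99.5% of the Vegfa level in iWAT and 55.2 to 65.1% in BAT. The part near the start of Vegfa and the whole of Vegfa thus gave different sizes for the same comparison. This row was picked out after its values were seen.

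Within the Vegfa mRNA of eWAT, exon 6 carried few reads. The 6 libraries had 6 to 22 reads over its 72 bases and 159 to 453 reads over the 132 bases of exon 7. Per base, exon 6 stood at 8.46% ± 2.34 of exon 7 (SD, n = 6), with a range of 4.38 to 11.6%. Exon 7 stood at 94.1% ± 6.11 of the whole transcript, so exon 7 was covered about as densely as the transcript and exon 6 far less. Counts this small carry counting error on top of the spread, and reads across exon junctions may count less over a short exon.

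Vegfb, which is bound by Flt1 and is known from tissues that burn fatty acids, varied least among the ligands in iWAT. Its lowest, median and highest RPKM was 41.6, 46.2 and 49.2 in iWAT and 25.8, 51.9 and 62.0 in eWAT, beside 35.8, 39.1 and 52.8 in BAT. The log2 fold change in iWAT against BAT was -0.09 with a 95% interval of -0.24 to 0.05 (edgeR, adjusted p = 0.288), and it turned to 0.17 without TMM. In eWAT against BAT it was -0.47 ± 0.15 (edgeR, adjusted p = 0.00744), but this call rests on the scaling: without TMM the value was 0.24, in the other direction, with an adjusted p of 0.148. Library 15 of eWAT, the one with the high macrophage markers, was the lowest for Vegfb, and the value was called without any single library (-0.55 to -0.34). With the transcript nearest in length it was -0.28 and did not pass (edgeR, adjusted p = 0.0789). In eWAT the 101-base segment printed above had 135.9% ± 12.3 of the read density of the rest of the transcript (SD, n = 6), and each of the 6 libraries was above 120%. The segment was thus covered more densely than the rest in each library.

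**Figure D3:**
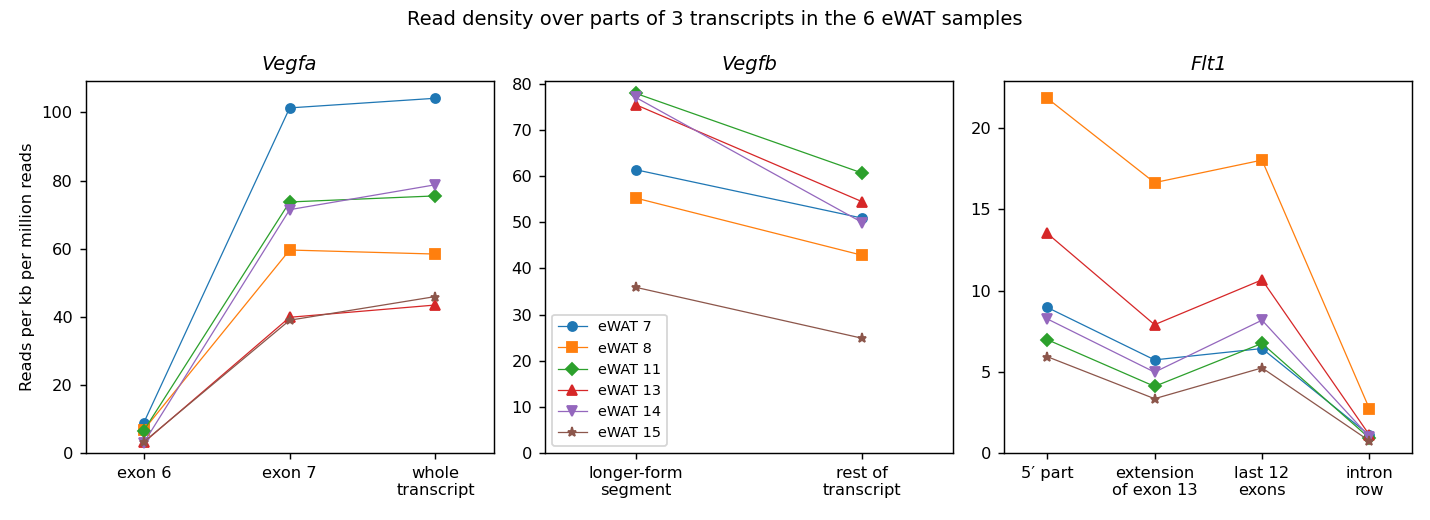
Read density (vertical axis, RPKM, from 0) over parts of the Vegfa, Vegfb and Flt1 transcripts in the 6 eWAT libraries, with a line for each library. Exon 6 of Vegfa is near the floor in each library, the Vegfb segment is above the rest of its transcript, and the extension of Flt1 exon 13 is above the intron row and below the 5′ part.

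Figf, a ligand of Flt4, was the member that set the white depots most clearly apart from BAT. It had 6.94, 7.68 and 8.51 RPKM as lowest, median and highest in iWAT and 7.76, 8.63 and 9.04 in eWAT, beside 0.707, 1.02 and 1.37 in BAT. Every white library was above every BAT library. The log2 fold change was 2.60 ± 0.16 in iWAT against BAT (edgeR, adjusted p = 4.7e-09) and 2.28 ± 0.15 in eWAT against BAT (adjusted p = 7.5e-11), and the white depots did not pass against each other (0.29 ± 0.14, adjusted p = 0.0787). Figf also varied little from library to library in the white depots, by 6.70% of its mean in iWAT and 5.93% in eWAT, where Kdr varied by 63.5% and 47.2%.

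Vegfc, the other ligand of Flt4, was low throughout, with 11 to 89 reads per library. Its RPKM was 0.144, 0.276 and 0.853 as lowest, median and highest in iWAT and 0.722, 1.33 and 1.44 in eWAT, beside 0.368, 0.502 and 0.632 in BAT. The ranges of eWAT and BAT did not overlap, yet relative to all genes the difference was 0.48 ± 0.35 (edgeR, adjusted p = 0.221), and it was called only on the scale without TMM (1.20, adjusted p = 0.00503). In iWAT against eWAT the log2 fold change was -1.21 ± 0.36 (edgeR, adjusted p = 0.00838), and without the length offset it was -0.99 (adjusted p = 0.0503). Figf made up 95.6% ± 3.18 of the summed RPKM of Figf and Vegfc in iWAT, 88.0% ± 3.25 in eWAT and 66.9% ± 8.58 in brown fat. The 6 markers of lymphatic endothelium, from which Flt4 is best known, summed to at most 5.79 RPKM in iWAT, 11.4 in eWAT and 1.79 in brown fat. Their sum was lowest in library 14 of iWAT, where Flt4 was highest. It was highest in library 15 of eWAT, where Flt4 was lowest, whereas in BAT both were lowest in library 8. The levels of the 6 markers were mixed. Lyve1 reached 4.78 RPKM in iWAT, 3.07 in eWAT and 0.957 in brown fat, whereas Pdpn reached 1.30, 9.23 and 0.517. Ccl21a was at 0 in all 18 libraries. Prox1 did not exceed 0.213 RPKM in any library, Mmrn1 0.379 and Reln 0.0984.

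The 4 receptors moved together from library to library. Kdr had a lowest, median and highest RPKM of 3.91, 7.003 and 20.2 in iWAT and 9.56, 15.2 and 31.4 in eWAT, beside 11.2, 14.5 and 16.5 in BAT. Library 14 of iWAT and library 8 of eWAT were the highest of their depots for Flt1, Kdr, Flt4 and Tek alike, and library 11 was so in BAT. Without library 14, the other 5 iWAT libraries had at most 11.9 RPKM of Kdr. With all libraries, Kdr was lower in iWAT than BAT by -0.85 ± 0.31 on the log2 scale (edgeR, adjusted p = 0.0244), and Tek by -0.94 ± 0.31 (adjusted p = 0.0145). Flt1 (-0.72 ± 0.32, adjusted p = 0.0573) and Flt4 (-0.44 ± 0.37, adjusted p = 0.307) did not pass. Without library 14 of iWAT all 4 passed, at -1.12 for Flt1, -1.23 for Kdr, -0.97 for Flt4 and -1.31 for Tek, with adjusted p between 1.4e-04 and 0.0033. Library 14 was the highest for these same 4 receptors, so leaving it out was bound to lower iWAT. These p-values are therefore no further support. The Kdr call was lost without library 7, 13 or 15 of iWAT, at an adjusted p of at most 0.0567. Without TMM scaling neither Kdr (-0.58, adjusted p = 0.109) nor Tek (-0.68, adjusted p = 0.068) passed.

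The receptors of eWAT were not called against either depot in the main fit. In iWAT against eWAT some alternatives with TMM scaling and all libraries called 2 of them. Flt1 passed with the eWAT transcript of highest RPKM (-0.81, edgeR, adjusted p = 0.0457) and with that nearest in length (-0.85, adjusted p = 0.0446). Tek passed with the transcript nearest in length (-0.91, adjusted p = 0.0241) and with at least 10 reads in every sample (-0.74, adjusted p = 0.0499). For eWAT against BAT, the 95% intervals of the log2 fold change were -0.71 to 0.59 for Flt1, -1.06 to 0.20 for Kdr, -0.66 to 0.79 for Flt4 and -0.83 to 0.38 for Tek. Each interval holds 0, and none is narrow enough to show equal levels. Without TMM the values of Flt1 (0.67), Kdr (0.31) and Tek (0.51) turned above 0. Without iWAT 14 and eWAT 8 together, Kdr (-0.65, edgeR, adjusted p = 0.0157) and Tek (-0.48, adjusted p = 0.0431) were called lower in eWAT than BAT. For iWAT against eWAT all 4 values were below 0, from -0.74 for Tek (adjusted p = 0.0552) to -0.44 for Kdr (adjusted p = 0.265). Without library 14 of iWAT all 4 passed here too, between -1.12 and -0.84, under the same limit on leaving out that library. All 4 also passed without TMM, at -1.14 for Flt1, -0.89 for Kdr, -0.99 for Flt4 and -1.19 for Tek (edgeR, adjusted p = 0.0108, 0.0331, 0.0421 and 0.00528), and in both limma fits on RPKM. Of all 18383 symbols, the fit without TMM called 8641 lower in iWAT and 955 higher. The limma fits called 8630 and 8515 lower, and 995 and 964 higher. In these fits the receptors thus shared the direction of most calls. Flt1 needs a further remark, because its merged row of 13505 bases holds the intron extension of the short form and its eWAT transcript of 6895 bases does not. Over the alternative runs, other than leaving out 1 library, Flt1 ran from -0.62 to 0.67 in eWAT against BAT. In iWAT against eWAT it ran from -1.18 to -0.14, so the size of this difference depends on the processing.

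Reads over the intron extension that marks the short form of Flt1 could be counted in eWAT. Most of the extension of exon 13 (chr5:148446735-148450687) was measured as the difference between a long and a shorter deposited row. The shorter row itself runs a little way into the intron and starts slightly further 5′, which left a net length of 3929 bases. This difference came to 433 to 2226 reads per library, and its density was 62.4% ± 7.22 of that of a row of 2072 bases at the 5′ end of the gene (SD, n = 6). The last 12 exons of the full form stood at 86.2% ± 10.504 of the same row. The extension and the last 12 exons together exceed the 5′ row, so these densities are not levels of the 2 forms. A row in an earlier intron, of whose 2030 bases 109 are exonic, stood at 13.99% ± 2.34 of the last 12 exons, against 73.6% ± 14.2 for the extension. In each of the 6 libraries the extension was thus above the intron row and below the 5′ part. In iWAT and BAT the merged row holds both forms, and they could not be told apart there.

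In the white depots, the receptors varied less once divided by general endothelial markers. The sum of 13 markers (without Tie1 and Ptprb, which belong to the Tek pathway) ran from 68.6 to 391 RPKM in iWAT, 184 to 444 in eWAT and 76.7 to 180 in brown fat. Dividing by this sum reduced the coefficient of variation of Kdr from 63.5% to 11.7% in iWAT and from 47.2% to 16.2% in eWAT, and that of Tek from 62.6% to 10.4% and from 46.7% to 11.99%. In BAT that of Kdr was 15.8% before and 16.9% after, and that of Tek fell from 21.2% to 14.3%. The same division raised that of Vegfa from 28.5% to 55.2% in iWAT and that of Angpt1 from 29.3% to 59.8%. Library 14 of iWAT, the highest for the endothelial markers, was the lowest of its depot for Vegfa and Angpt1. In such bulk samples fewer endothelial cells and less RNA per endothelial cell cannot be told apart.

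**Figure D4:**
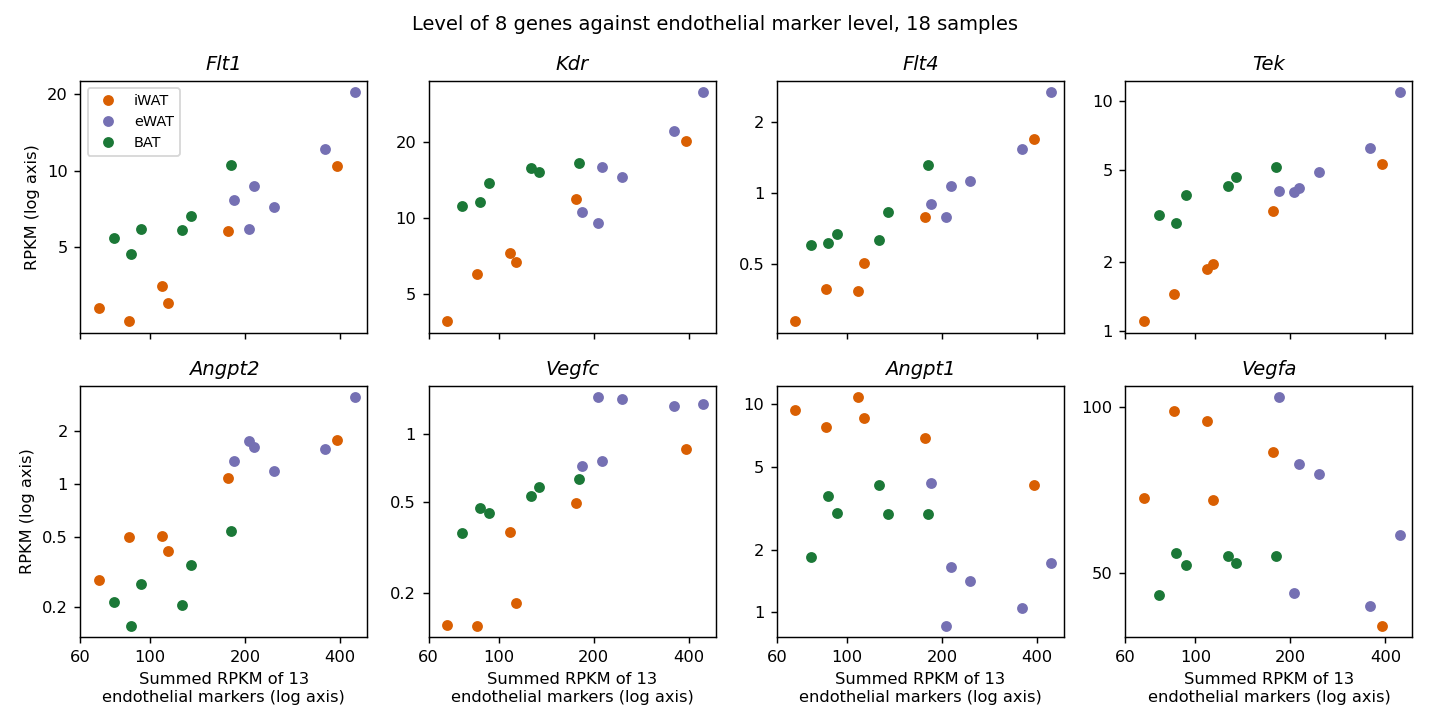
RPKM of 8 genes (vertical log axes) against the summed RPKM of 13 endothelial markers (horizontal log axis) in 18 libraries, coloured by depot. The 4 receptors climb with the marker sum, Angpt1 and Vegfa do not, and at a given sum the BAT points lie above the iWAT points for Flt1, Kdr and Tek.

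Per unit of endothelial marker, the receptors were lower in iWAT than in BAT. Kdr, Tek and Flt1 were below every BAT library in eWAT too, at 4.64 to 7.44%, 1.75 to 2.46% and 2.87 to 4.58% of the marker sum. Flt4 of eWAT (0.384 to 0.598%) overlapped BAT. Kdr was 5.16 to 7.04% of the sum of the 13 markers in iWAT and 9.15 to 14.8% in BAT. Tek was 1.36 to 1.88% in iWAT and 2.87 to 4.20% in BAT, Flt1 was 2.65 to 4.19% and 4.61 to 7.10%, and Flt4 was 0.351 to 0.456% and 0.496 to 0.782%. For none of the 4 receptors did the ranges of iWAT and BAT overlap. The same held for Cdh5, the cadherin of endothelial junctions (19.8 to 23.0% and 24.3 to 27.9%), and for Tie1, the receptor related to Tek (3.30 to 3.92% and 5.93 to 7.14%), so it was not particular to these receptors. Cldn5, a member of the sum, was higher in iWAT, at a mean of 66.8 ± 53.7 RPKM against 22.3 ± 13.1 in BAT (SD, n = 6). Set against Cdh5 alone, Kdr stood at 0.246 to 0.310 in iWAT and 0.362 to 0.536 in BAT, and Tek did not overlap either (0.0647 to 0.0828 and 0.114 to 0.154), whereas Flt1 (0.127 to 0.212 and 0.186 to 0.261) and Flt4 (0.0154 to 0.0211 and 0.0205 to 0.0288) overlapped. In eWAT, Kdr (0.279 to 0.382), Tek (0.1002 to 0.124) and Flt1 (0.173 to 0.227) per Cdh5 all overlapped BAT. The separation of eWAT from BAT thus held for the marker sum and not for Cdh5 alone. These ratios were chosen after the values were seen and carry no test, and how many of all genes part in this way was not counted. Of the 15 endothelial markers, 1 was called higher in iWAT than BAT (Cldn5) and 4 lower (Egfl7, Sox18, Vwf and Eng), where 34.0% and 33.6% of all rows were, with a median log2 fold change of -0.16. The part that cell makeup plays in the receptor differences was not tested.

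Tek belonged to the group of receptors by its pattern, and its 2 ligands parted from each other. Tek had a lowest, median and highest RPKM of 1.11, 1.92 and 5.32 in iWAT and 4.02, 4.55 and 10.9 in eWAT, beside 2.96, 4.10 and 5.18 in BAT. Angpt1, the agonist, had 4.08, 8.18 and 10.9 in iWAT and 0.860, 1.54 and 4.21 in eWAT, beside 1.84, 2.99 and 4.08 in BAT. All iWAT libraries were above all BAT libraries for Angpt1, though the lowest iWAT library (4.0803 RPKM) was only just above the highest BAT library (4.0780 RPKM), and library 7 of eWAT stood above the rest of its depot. The log2 fold change was 1.10 ± 0.22 in iWAT against BAT (edgeR, adjusted p = 4.9e-04), -1.47 ± 0.33 in eWAT against BAT (adjusted p = 5.4e-04) and 2.54 ± 0.34 in iWAT against eWAT (adjusted p = 5.6e-06). Angpt1 was thus highest in iWAT, intermediate in BAT and lowest in eWAT. Each of these 3 calls held without any single library. Mural cells are a known source of Angpt1. Of the 10 mural markers, 8 were lower and 1 higher in iWAT than BAT (33.6% and 34.0% of all rows), 5 were lower and 1 higher in eWAT than BAT (34.1% and 39.9% of all genes), and 3 were lower and 1 higher in iWAT than eWAT (28.3% and 24.2%). Their part in the Angpt1 differences was not tested.

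Angpt2, the antagonist, was higher in eWAT than in BAT. Its lowest, median and highest RPKM was 0.286, 0.505 and 1.77 in iWAT and 1.19, 1.60 and 3.11 in eWAT, beside 0.157, 0.242 and 0.541 in BAT. The ranges of eWAT and BAT did not overlap, and in each depot Angpt2 was highest in the library with the highest endothelial marker sum. The log2 fold change in eWAT against BAT was 1.89 ± 0.39 (edgeR, adjusted p = 2.5e-04), and it was called without any single library. In iWAT against BAT it was 1.1601 ± 0.42 (edgeR, adjusted p = 0.0254), but this call was lost without iWAT 12 or 14 or without BAT 6, 7 or 8, and stood at 0.71 (adjusted p = 0.078) without library 14 of iWAT. In iWAT against eWAT the ranges overlapped and the value was -0.75 ± 0.37 (edgeR, adjusted p = 0.0958), and without library 14 of iWAT it was -1.22 (adjusted p = 0.00385). Without TMM (-1.20, adjusted p = 0.0148) and without the length offset (-1.12, adjusted p = 0.0357) it passed too. The fit without TMM called 8641 of all symbols lower in iWAT than eWAT and 955 higher. BAT had only 20 to 61 reads for this gene per library.

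The 2 ligand ratios fixed for testing compare genes within a library and so do not depend on the scaling between libraries. Cell makeup can still enter them: the 13 endothelial markers summed to 184 to 444 RPKM in eWAT and 76.7 to 180 in BAT. The part of cell makeup in these ratios was not tested. The median ratio of Angpt2 to Angpt1 was 0.0565 in iWAT, 1.24 in eWAT and 0.103 in brown fat. All 6 BAT libraries were below all 6 eWAT libraries. The mean log2 ratio was -3.61 ± 1.42 (SD, n = 6) in iWAT, 0.09 ± 0.98 in eWAT and -3.50 ± 0.79 in brown fat. The exact two-sided permutation test gave an adjusted p of 0.013 for eWAT against BAT, with a difference of 3.58, and 0.013 for iWAT against eWAT, with a difference of -3.70, over the 6 comparisons of the 2 ratios. For eWAT against BAT the unadjusted p of 0.00216 is the smallest that 6 against 6 libraries allow. The difference of -0.11 between iWAT and BAT did not pass (exact permutation test, adjusted p = 0.879).

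The ratio of Vegfa to its receptor Kdr had a median of 11.5 in iWAT, 4.89 in eWAT and 3.59 in brown fat. In iWAT it ranged from 1.98 in library 14 to 17.5 in library 11, and in BAT from 3.26 to 4.69. The other 5 iWAT libraries, at 6.97 to 17.5, were above all BAT libraries. The mean log2 ratio was higher in iWAT than BAT by 1.26 (exact permutation test, adjusted p = 0.0606) with all libraries, which did not pass. Without library 14 it was higher by 1.70 (exact permutation test, adjusted p = 0.00866). Library 14 had the lowest ratio of its depot, so leaving it out was bound to raise the difference. The p-value without it is therefore no further support. Neither eWAT against BAT (0.12, exact permutation test, adjusted p = 0.879) nor iWAT against eWAT (1.14, exact permutation test, adjusted p = 0.133) passed with all libraries. Without library 14 of iWAT, iWAT was higher than eWAT by 1.58 (exact permutation test, adjusted p = 0.013), under the same limit.

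**Figure D5:**
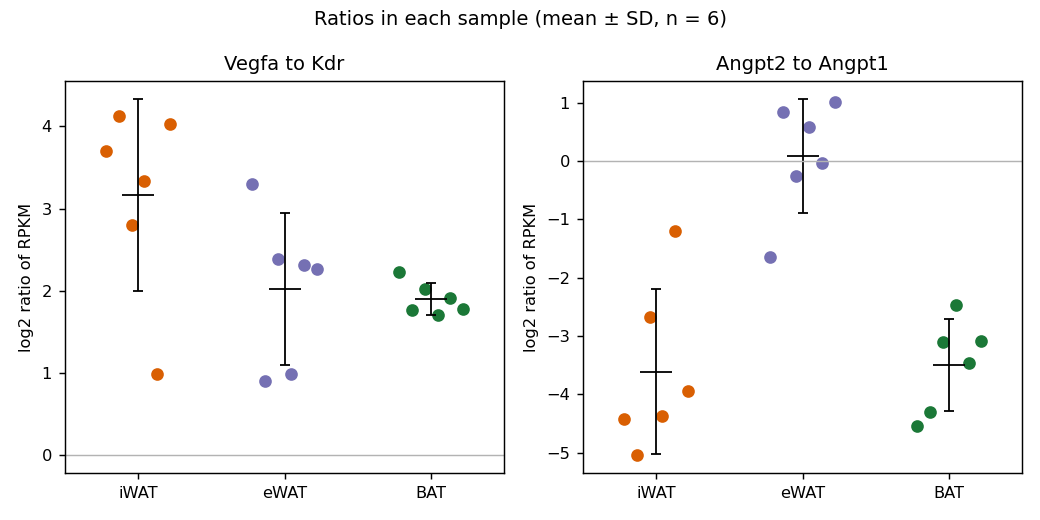
Log2 ratio of the RPKM of Vegfa to Kdr and of Angpt2 to Angpt1 (vertical axes) in each of 6 libraries per depot, with the mean ± SD. For Angpt2 to Angpt1 the eWAT points lie around 0 and those of iWAT and BAT around -3.5, and for Vegfa to Kdr 1 iWAT point lies below all others of its depot.

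The wider pathway was followed in 30 further genes, of which 25 were tested in iWAT against BAT. In that comparison 10 were higher in iWAT and 5 lower, where 34.0% and 33.6% of all rows were, with a median log2 fold change of 0.15 against 0.01 over all rows. Among the ligands and modulators, Pgf, a VEGF family ligand of Flt1, was higher by 2.84 ± 0.67 on the log2 scale (edgeR, adjusted p = 0.0019). Thbs1 and Thbs2, which encode the thrombospondins that restrain vessel growth, were higher by 5.24 ± 0.59 and 4.49 ± 0.20. Thbs1 had 46.7 to 152 RPKM in iWAT, 116 to 294 in eWAT and 0.456 to 5.05 in brown fat, and all white libraries were above all BAT libraries. Sema3c, a guidance ligand of neuropilins and plexins, was higher by 3.29 ± 0.25, and Apln, a peptide of growing vessels, by 1.35 ± 0.46. Inside the cell, Nos3, the endothelial nitric oxide synthase, and Grb10, an adaptor of receptor kinases, were higher by 1.11 ± 0.11 and 1.65 ± 0.15. Nrp2, the co-receptor for Vegfc, was lower by 2.57 (edgeR, SE 0.24, adjusted p = 4.6e-07), at 1.24 to 3.73 RPKM in iWAT and 7.88 to 13.2 in BAT. Pdgfb, with which endothelium recruits mural cells, was lower at -1.44 ± 0.41, and so was Adamts3, which takes part in Vegfc processing, at -1.89 ± 0.30 and a level of at most 0.109 RPKM in any BAT library.

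In eWAT against BAT, 28 of the 30 genes were tested, and 16 were higher and 3 lower (39.9% and 34.1% of all genes), with a median of 0.69 against 0.08 over all genes. In iWAT against eWAT 3 of 28 were higher and 9 lower (24.2% and 28.3% of all genes), with a median of -0.43 against 0.04. Pgf (2.95 ± 0.61), Thbs1 (6.07 ± 0.56), Thbs2 (3.13 ± 0.23) and Sema3c (3.93 ± 0.23) were higher in eWAT than BAT too, and Nrp2 (-1.59 ± 0.30) was lower. Nrp1, the co-receptor for Vegfa, was not called in iWAT against BAT (-0.15 ± 0.09, adjusted p = 0.14) and was higher in eWAT than BAT (0.97 ± 0.11, adjusted p = 1.2e-07, edgeR). It had 32.0 to 53.7 RPKM in eWAT, above every iWAT and BAT library.

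Of 14 regulators of Vegfa transcription, 13 were tested in iWAT against BAT, and 5 were higher and 7 lower, where 34.0% and 33.6% of all rows were. The hypoxia factor subunit Hif1a was higher in iWAT by 1.11 ± 0.17, as was Vhl, which targets it for degradation, by 1.11 ± 0.17, and Zfp36l1, which promotes the decay of Vegfa mRNA, by 2.52 ± 0.25 (edgeR, adjusted p = 4.5e-05, 4.1e-05 and 7.2e-07). The prolyl hydroxylases Egln1 and Egln3, which mark the hypoxia factors for Vhl, were lower, at -1.40 ± 0.09 and -1.45 ± 0.15. The oxygen-independent inducers of Vegfa were lower as well: Ppargc1a at -2.68 ± 0.35, Ppargc1b at -3.38 ± 0.10 and their partner Esrra at -2.30 ± 0.09. In eWAT against BAT 5 of 14 were higher and 7 lower (39.9% and 34.1% of all genes), and each of the 8 genes named here had the same sign and was called there too.

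The genes whose within-depot pattern was most like that of a member were found over 18 libraries, among 10337 symbols with a mean of at least 1 RPKM in every depot. For Kdr they were Jam2, Erg, Pkp4, Btnl9 and Cdh13, with Pearson r from 0.972 to 0.977. For Vegfa they were Adamts5, Pcf11, Dusp10, Slc5a3 and Lnpep, from 0.838 to 0.911, and for Angpt1 they were Zfp869, Snhg11, Zfp826, Mlxipl and Tnrc18, from 0.827 to 0.911. Among the members, Kdr and Tek had r = 0.96, Kdr and Flt1 0.92, Vegfa and Angpt1 0.80, and Vegfa and Kdr -0.43. These are descriptions, since genes of a library share its depth and its cell makeup.

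The receptor promoters were searched because the receptors moved together. RefSeq windows on GRCm38.p6, from 250 bases before to 50 after the start, existed for 8 members under their symbols or as Vegfd for Figf, and not for Angpt1 and Angpt2. The core GGAA of endothelial ETS factors, on both strands, occurred 4 times for Flt1, 5 times for Kdr and 2 times each for Flt4 and Tek, where the median of all 32851 windows was 3. The cyclic AMP element TGACGTCA, a palindrome, was found for Flt1 alone of the 8 members, and 1.79% of all windows hold it. The hypoxia core ACGTG, on both strands, was found in 1 of the 2 Vegfa windows and in 19.6% of all windows. The 110 bases before the Flt1 start (chr5:147726012-147726121, minus strand, GRCm38.p6) are shown with GGAA cores and TGACGTCA in capitals.
Flt1 promoter: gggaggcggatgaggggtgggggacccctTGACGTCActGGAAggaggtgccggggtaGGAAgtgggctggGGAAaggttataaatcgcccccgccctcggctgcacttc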

How the data were processed

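RNA-seq libraries of 6 iWAT, 6 eWAT and 6 BAT samples were used, with groups taken from the labels. Reads were mapped by the authors to mm9. The submitters' processing notes name cutadapt 1.16 and HISAT2 2.1.0, and the study's methods name the Genomatix Genome Analyzer. The deposited files hold raw read counts per row and RPKM values, which the authors computed from the counts, the row length and 1 read total per sample. The iWAT and BAT files have 53445 merged gene rows, and the eWAT files 189660 transcript rows, where the member's most-read transcript was taken.

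Counts were tested with edgeR 4.0.16 (quasi-likelihood, TMM, Benjamini-Hochberg, adjusted p under 0.05) in R 4.3.3, on rows that reached 10 reads in 6 or more samples. iWAT against BAT was fitted on 12 samples (19733 rows), and the comparisons with eWAT on 18 samples with row length as an offset (18383 symbols). Standard errors were derived from the F statistic, and 95% intervals are 1.96 of them. Ratios within a library were tested by exact two-sided permutation (scipy 1.17.1). DESeq2 1.42.0, limma 3.58.1 on log2(RPKM + 0.1) or log2(RPKM + 1), other filters, other rows, a replicate block and leaving out each library were the alternatives. On simulated counts, 86 of 99 genes changed by 1 on the log2 scale were called in iWAT against BAT, 32 of 49 in eWAT against BAT and 67 of 99 in iWAT against eWAT.

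The members and the gene lists were chosen with earlier results of these data known. All 10 members are named. Other genes of the pathway and regulators were counted in full and named where they passed in iWAT against BAT with an absolute log2 fold change of at least 1. Nrp1, the genes called among the endothelial markers and the row in the first Vegfa exon were named after their values were seen. Genes most like a member had the highest Pearson r of log2(RPKM + 0.1) after subtraction of depot means. Segment densities in eWAT are differences between the read counts of transcript rows that differ by that segment, or single rows. The main fits did not pair libraries of different depots that share a number, and whether such libraries came from 1 animal is not stated. Columns of normalized expression that the authors also gave were not used here.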

Additional observations from a re-analysis of the deposited data

Results flagged for a closer look

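Of 36 sets of 6 libraries examined (members and ratios by depot), 7 held a library far from the others by Dixon's criterion at 95%, where chance gives about 1.8 at 1 in 20. In BAT, library 11 had 10.501 RPKM of Flt1, against 4.69 to 6.66 in the other libraries, and 1.31 RPKM of Flt4, against 0.6002 to 0.823. This library was also highest for 13 of 15 endothelial markers. Library 8 of BAT had 45.5 RPKM of Vegfa, against 51.6 to 54.4, and was the lowest BAT library. In eWAT, library 8 had 10.9 RPKM of Tek, against 4.02 to 6.27, and 3.11 RPKM of Angpt2, against 1.19 to 1.75, and was highest for 13 of 15 endothelial markers. Library 7 of eWAT had 4.21 RPKM of Angpt1, against 0.860 to 1.73, and also the highest Vegfa of its depot. In iWAT, library 14 had 1.69 RPKM of Flt4, against 0.285 to 0.786, and was highest for 15 of 15 endothelial markers. The part of cell makeup in these values was not tested.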

How the results depend on the processing

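Over 810 values of single members under alternatives, 671 kept direction and call, 27 lost the call, 74 gained one and 38 changed sign. Figf in both comparisons with BAT and Angpt1 in all 3 comparisons kept their direction and call in each alternative run. Of the 10 members, 5 were called in iWAT against BAT, and 8 with the replicate block, 8 without library 14 of iWAT and 3 at an absolute log2 fold change of at least 1. Of all 19733 rows, the block called 5842 higher and 5869 lower in iWAT. At an absolute log2 fold change of at least 1, 2968 rows were higher and 3377 lower. In iWAT against eWAT 3 members were called, and 5 by DESeq2, 7 by limma with 0.1 or with 1 added and 7 without TMM. Of all 18383 symbols, DESeq2 called 5320 higher and 4853 lower in iWAT. Limma with 0.1 added called 995 and 8630, limma with 1 added 964 and 8515, and the fit without TMM 955 and 8641. The member count was 5 with at least 10 reads in every sample, 7 with the eWAT transcript of highest RPKM and 5 with that nearest in length. It was 8 without iWAT 14 and eWAT 8. Without eWAT 14 and 15, an alternative chosen after seeing the data like that without iWAT 14 and eWAT 8, 4 members were called in eWAT against BAT and 4 in iWAT against eWAT. For the other alternatives the share over all genes is not given, and their counts are not read as a result about the members. Leaving out 1 library gave 4 to 8, 4 to 5 and 2 to 8 members called in iWAT against BAT, eWAT against BAT and iWAT against eWAT. The labels do not say whether libraries of different depots with the same number came from 1 animal. Same-number correlations of -0.31 to 0.11 cannot decide it. The block on these numbers lost Angpt2 in iWAT against BAT (0.46, adjusted p = 0.407 by edgeR) and gained Vegfa, Vegfc, Flt1 and Flt4. In iWAT against eWAT it lost Vegfa and gained Vegfb.

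Without TMM, 65.8% of the genes called in iWAT against BAT were higher (50.3% with it), 78.7% in eWAT against BAT (53.9%) and 9.95% in iWAT against eWAT (46.1%). Limma with 0.1 added, limma with 1 added and the fit without TMM turned the same members. For iWAT against BAT, Vegfb became 0.18, 0.17 and 0.17. For eWAT against BAT, Vegfa became 0.32, 0.31 and 0.39, Vegfb 0.21, 0.20 and 0.24, Flt1 0.58, 0.53 and 0.67, Kdr 0.20, 0.19 and 0.31, and Tek 0.42, 0.36 and 0.51. For iWAT against eWAT, Vegfb became -0.029, -0.030 and -0.079, and Figf -0.14, -0.13 and -0.14. In eWAT against BAT, Flt1 also became 0.036 with no filter, 0.068 with the transcript of highest RPKM, 0.14 with that nearest in length and 0.12 without eWAT 14 and 15, and Flt4 became -0.071 with the block, -0.0021 by DESeq2, -0.10 with the transcript of highest RPKM and -0.21 without iWAT 14 and eWAT 8. Leaving out 1 library moved Flt1 from -0.33 to 0.064 and Flt4 from -0.21 to 0.21. Causes were not tested.

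For the log2 ratio of Vegfa to Kdr, leaving out 1 library gave 1.07 to 1.70 in iWAT against BAT, 0.92 to 1.58 in iWAT against eWAT and -0.13 to 0.35 in eWAT against BAT, where the transcript of highest RPKM gave -0.21. For Angpt2 to Angpt1 it gave -0.59 to 0.17, -4.18 to -3.41 and 3.38 to 3.93. Rows shared by both kinds of file give no value for a member. Low counts limit Vegfc and, in BAT, Angpt2.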
